A study of Mus musculus with 6 samples.

Results

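The mature strands of mmu-miR-143 and mmu-miR-145a, microRNAs best known from vascular smooth muscle, were followed in nephron progenitors and whole kidney of the embryonic mouse. Members were taken by name: every mature strand whose name carries either stem, on both the 5p and the 3p arm of its hairpin. This gave 4 strands of the 535 mature miRNAs in the count table, from 2 neighbouring precursors, mir-143 and mir-145a. All 4 were among the 525 miRNAs tested, each on 1 row of the table.

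A miRNA precursor is a hairpin that is cut into a 5p and a 3p strand, and the strand loaded into Argonaute (the guide) pairs through its seed with target mRNAs while the other is mostly lost. The miR-143 and miR-145 hairpins lie next to each other in the genome and are abundant in smooth muscle of vessels and viscera and in pericytes, where they favour the contractile state. In the kidney those cells belong to vessel walls, glomerular mesangium and the stroma-derived mural compartment, not to the nephron lineage.

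The study profiled small RNA in kidneys of CD1 mouse embryos at embryonic day 15.5. Nephron progenitors (MNP) were obtained by limited digestion of the kidney, after which other cells were removed on magnetic beads with antibodies to CD140a, CD105, Epcam and Ter119. Whole kidney (MWK) was the kidney tissue that remained after the same digestion. There were 3 libraries per group, MNP1, MNP2 and MNP6 against MWK1, MWK2 and MWK6, so n is 3 libraries per group. The p-values of the fits rest on the spread between libraries, which the fits estimate partly or wholly from other miRNAs, precursors or pairs. The study describes 3 litters for both groups together, so the groups share litters if the replicates of each group came from different ones, but nothing in the sources used here says which libraries belong together. None of the antibodies used for depletion was directed at PDGFRβ, the usual antigen of mural cells, and the study reports minor carry-over of renal stroma in the isolate, detected by qPCR for Pdgfrβ. RNA was extracted with a Micro column kit for MNP and a Mini column kit for MWK, so cell isolation and kit cannot be told apart. The tables hold miRNAs and no mRNA, so the label of smooth muscle or pericyte was not checked here against mRNA markers, and the strands are called by their names.

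Counts summed to 393951, 436112 and 333850 in MNP1, MNP2 and MNP6, against 349241, 360221 and 355848 in MWK1, MWK2 and MWK6. A floor of 3 counts was worth 6.88 to 8.99 CPM (counts scaled to a fixed library total), well under every member value. Levels below are CPM scaled by trimmed mean of M-values (TMM). A read spans a whole mature strand, so no length correction was needed. Ligation favours some ends over others, however, and reads of different strands are not molecule numbers.

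miR-143-3p, the guide of mir-143, stood at 21270, 28094 and 25624 CPM in MNP1, MNP2 and MNP6, against 60316, 71006 and 57048 CPM in MWK1, MWK2 and MWK6. Every whole kidney library lay above every nephron progenitor library, with a wide gap between the groups. The mean was 24996 ± 3455 CPM (SD, n = 3) in MNP and 62790 ± 7301 CPM (SD, n = 3) in MWK. The log2 fold change of MNP over MWK was -1.33 (SE 0.15, 95% interval -1.65 to -1.01, adjusted p 1.5e-05 by the edgeR quasi-likelihood test, Benjamini-Hochberg adjusted). In bulk RNA, fewer cells of a type and less RNA per cell cannot be told apart. The strand remained abundant in the depleted cells, where it ranked 7 of 525 by mean CPM, against 3 of 525 in whole kidney. In nephron progenitors it sat between miR-99b-5p at 25797 ± 2282 CPM and let-7f-5p at 24586 ± 5373 CPM, neighbours that did not differ from it beyond their spread. In whole kidney the next strand above it was miR-10b-5p at 101081 ± 2438 CPM, well outside its spread, and the next below was miR-30a-5p at 53102 ± 7870 CPM, within about the summed spreads. It took 2.69% ± 0.431 of all MNP counts and 5.83% ± 0.391 of all MWK counts (SD, n = 3).

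miR-145a-5p, the strand usually described as the guide of mir-145a, was far less abundant. It was at 98.5, 135 and 99.9 CPM in MNP1, MNP2 and MNP6, against 352, 498 and 368 CPM in MWK1, MWK2 and MWK6. The groups did not overlap, and MNP2 and MWK2 were the highest of their groups, as they were for miR-143-3p. Its mean was 111 ± 20.7 CPM in MNP and 406 ± 79.9 CPM in MWK (SD, n = 3). The log2 fold change was -1.86 (SE 0.24, 95% interval -2.38 to -1.33, adjusted p 6.1e-05 by the edgeR quasi-likelihood test, Benjamini-Hochberg adjusted). These levels rest on 40, 62 and 38 MNP counts and on 117, 158 and 126 MWK counts. By rank it moved from 137 of 525 in whole kidney, between miR-106b-5p and miR-32-5p, to 203 of 525 in nephron progenitors, between miR-23a-3p and miR-219a-1-3p.

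The partner strands gave another picture. miR-145a-3p was at 367, 349 and 318 CPM in MNP1, MNP2 and MNP6, against 460, 469 and 344 CPM in MWK1, MWK2 and MWK6. MWK6 fell within the nephron progenitor range, so the groups overlapped. The means were 344 ± 24.7 CPM and 425 ± 69.5 CPM (SD, n = 3), and the log2 fold change of -0.30 did not pass (SE 0.21, 95% interval -0.75 to 0.15, adjusted p 0.31 by the edgeR quasi-likelihood test, Benjamini-Hochberg adjusted). Its deposited counts were close in both groups, 149, 160 and 121 against 153, 149 and 118.

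miR-143-5p was the rarest member, at 64.0, 63.2 and 44.7 CPM in MNP1, MNP2 and MNP6, against 78.2, 63.0 and 46.7 CPM in MWK1, MWK2 and MWK6. The groups overlapped almost throughout, and MNP6 and MWK6 were the lowest of their groups. The means were 57.3 ± 10.9 CPM and 62.6 ± 15.7 CPM (SD, n = 3), with a log2 fold change of -0.12 that did not pass (SE 0.29, 95% interval -0.76 to 0.52, adjusted p 0.81 by the edgeR quasi-likelihood test, Benjamini-Hochberg adjusted). Its direction was not settled: scaled by library totals, the log2 fold change was 0.078, and without MWK1 it was 0.073. It rested on 16 to 29 counts per library, so a small change was not detectable at this depth.

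**Figure D1:**
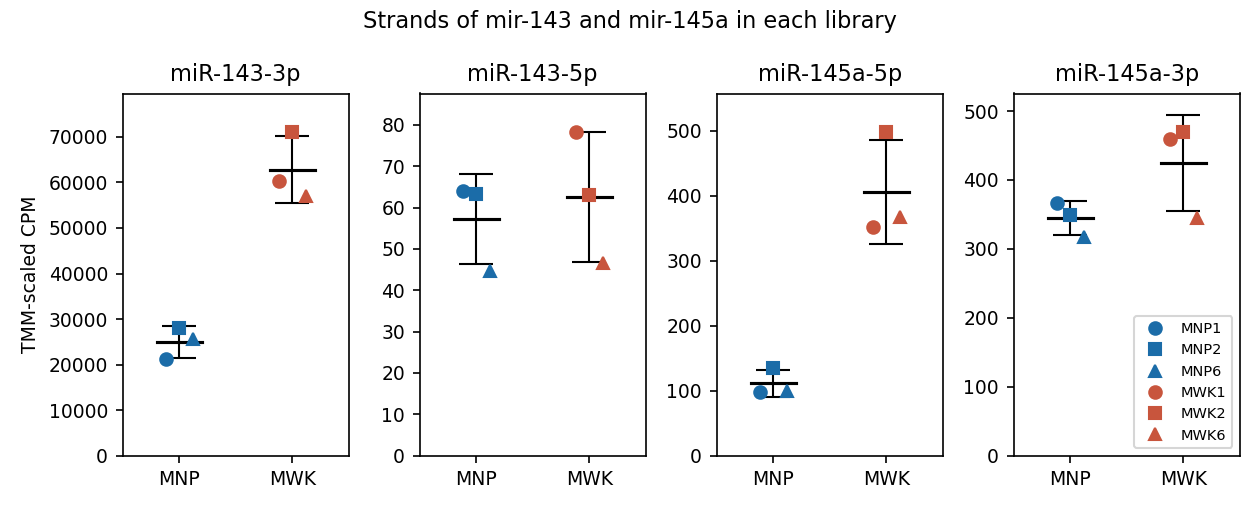
TMM-scaled CPM (y axis, linear and from 0) of the 4 member strands in the 3 MNP and 3 MWK libraries, with points for libraries, a thick line for the mean and bars for 1 SD. miR-143-3p and miR-145a-5p are lower in every MNP library than in any MWK library, while the groups overlap for miR-143-5p and miR-145a-3p.

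Thus 2 of the 4 strands, miR-143-3p and miR-145a-5p, fell in nephron progenitors, where 90 of 525 miRNAs (17.1 percent) were called lower. The same 2 of 4 had groups that did not overlap with MNP lower, as did 122 of 525 miRNAs (23.2 percent). With 4 strands, 2 calls are a small count beside that background, and the strands of a hairpin are not independent. Library totals shift the median log2 fold change of all miRNAs from -0.011 to 0.19, and the log2 fold changes of miR-143-3p and miR-145a-5p as fitted were then -1.12 and -1.65. Relative to the median of all miRNAs under the same scaling they were -1.30 and -1.84, close to the -1.32 and -1.85 relative to the median under TMM.

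Each precursor had 1 strand that fell and 1 that did not pass, so the balance of the arms was compared directly, within each library, where library scaling cancels. For mir-145a the 5p strand made up 21.2%, 27.9% and 23.9% of the counts of both arms in MNP1, MNP2 and MNP6, with 95% Wilson intervals of 15.9 to 27.5, 22.4 to 34.2 and 17.9 to 31.1. In MWK1, MWK2 and MWK6 it made up 43.3%, 51.5% and 51.6%, with intervals of 37.6 to 49.3, 45.9 to 57.0 and 45.4 to 57.8. Such intervals cover counting error only. In reads, the arms were thus close to parity in whole kidney, while 3p outnumbered 5p in all 3 nephron progenitor libraries. No library of either group came near the other. Reads of different strands are not molecule numbers, so these counts do not show which strand is the guide. The log2 ratio of 5p to 3p differed by -1.57 (SE 0.24, 95% interval -2.09 to -1.04, adjusted p 0.00041 by limma with a mean-variance trend and Benjamini-Hochberg adjustment over 67 precursors). Without the trend the adjusted p for mir-145a was 0.0065 by limma.

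For mir-143 the 3p strand outnumbered the 5p strand by 332, 445 and 574 to 1 in MNP1, MNP2 and MNP6 and by 771, 1128 and 1222 to 1 in MWK1, MWK2 and MWK6. The groups did not overlap, and the 5p share was larger in nephron progenitors, the opposite of mir-145a. That share was 0.300%, 0.224% and 0.174% of mir-143 counts in MNP1, MNP2 and MNP6, against 0.129%, 0.0886% and 0.0818% in MWK1, MWK2 and MWK6. The 95% Wilson intervals were 0.205 to 0.439, 0.156 to 0.322 and 0.109 to 0.279, against 0.0884 to 0.190, 0.0574 to 0.137 and 0.0504 to 0.133. The interval of MNP6 thus overlapped those of all 3 whole kidney libraries and that of MNP2 overlapped MWK1, unlike for mir-145a, where the intervals of the groups were apart. The log2 ratio of 5p to 3p differed by 1.21 (SE 0.23, 95% interval 0.71 to 1.71, adjusted p 0.0019 by limma with a mean-variance trend and Benjamini-Hochberg adjustment over 67 precursors). Without the trend the adjusted p for mir-143 was 0.021 by limma. By the exact two-sided permutation test over the 6 libraries both arm ratios gave p 0.1, the smallest that 3 against 3 can give.

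Both precursors were among 17 of 67 (25.4 percent) whose arm ratio passed, a background that 2 of 2 exceeds, although with so few members no share can be read from it. Ordered by size of change, mir-145a was at place 3 and mir-143 at place 6 of the 67. The precursors with the largest changes past the threshold were mir-27a (2.43), mir-322 (-1.96) and mir-145a itself (-1.57), as log2 ratios of 5p to 3p. In whole kidney mir-143 was the most lopsided of the 67 towards 3p, while mir-145a was at place 37. A call on 1 arm alone was common, in either direction: in 22 of the 67 precursors exactly 1 arm was called, in 20 both arms were called in the same direction, in 25 neither was, and in 0 were both called in opposite directions (the edgeR quasi-likelihood test, Benjamini-Hochberg adjusted). Whether the 2 arms of a hairpin differ in stability, loading or capture between the samples was not tested.

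The 2 hairpins were then set against each other. With both arms summed, mir-143 had 45.8, 58.2 and 61.4 counts for each count of mir-145a in MNP1, MNP2 and MNP6, against 74.4, 73.5 and 80.2 in MWK1, MWK2 and MWK6. MNP1 was the lowest, and the groups did not overlap. The mean ratio was 55.2 ± 8.23 in MNP and 76.0 ± 3.61 in MWK (SD, n = 3). The log2 ratio differed by -0.47 (SE 0.12, 95% interval -0.71 to -0.24, adjusted p 0.0011 by limma with a mean-variance trend and Benjamini-Hochberg adjustment over 48 pairs of adjacent precursors). In that fit the spread of each pair was taken wholly from the trend over all pairs, and without the trend the call was lost (adjusted p 0.084 by limma). The exact two-sided permutation p was 0.1, the smallest possible.

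The direction of that comparison turned on which strands were counted. miR-143-3p had 216, 208 and 257 counts for each count of miR-145a-5p in MNP1, MNP2 and MNP6, against 171, 142.7 and 155 in MWK1, MWK2 and MWK6. Against this strand the ratio was thus higher in all 3 nephron progenitor libraries, with a log2 difference of 0.52 (adjusted p 0.0018 by limma with trend, 0.044 without trend). Against miR-145a-3p, a choice made after seeing the data, miR-143-3p had 58.0, 80.6 and 80.6 counts in MNP1, MNP2 and MNP6, against 131, 151 and 166 in MWK1, MWK2 and MWK6. Here the groups were separated the other way, with a log2 difference of -1.04 (adjusted p 4e-12 by limma with trend, 0.0022 without trend). So the log2 change of miR-145a-5p was more negative than that of miR-143-3p, and the log2 change of miR-145a-3p was less negative.

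Among the 48 adjacent pairs, 11 (22.9 percent) passed in either direction, and the mir-143 and mir-145a pair was at place 4 by p and 11 by size. The largest changes past the threshold were those of mir-23a over mir-27a (-1.56) and mir-16-1 over mir-15a (1.13), with mir-20a over mir-92a-1 at -0.95. The sums behind all pairs left out any strand listed under more than 1 precursor. That of mir-92a-1 thus lacked its more abundant strand, miR-92a-3p, and its ratio does not describe the whole hairpin. The sums of mir-143 and mir-145a held both arms. All calls on pairs here come from the limma fit with trend, in which no pair's own spread counts. Without the trend 8 of 48 pairs (16.7 percent) passed, the 3 named here among them and the mir-143 and mir-145a pair not.

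**Figure D2:**
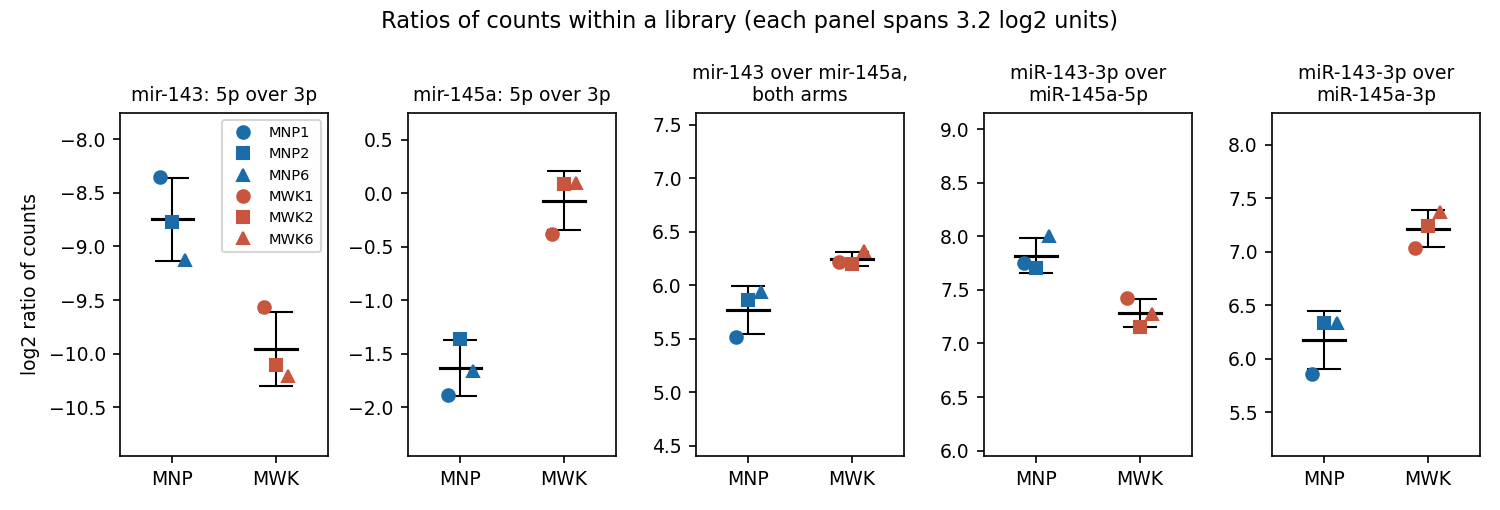
Log2 ratios of counts within each library (y axis; every panel spans 3.2 log2 units) for 5p over 3p of each precursor, for mir-143 over mir-145a with both arms summed, and for miR-143-3p over each arm of mir-145a, with points for libraries, a thick line for the mean and bars for 1 SD. The arm ratio is higher in MNP for mir-143 and lower in MNP for mir-145a, and the ratio between the hairpins is lower or higher in MNP according to the strand counted.

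All 4 strands together stood at 21799, 28640 and 26087 CPM in MNP1, MNP2 and MNP6, against 61206, 72036 and 57807 CPM in MWK1, MWK2 and MWK6. This sum is nearly all miR-143-3p and so follows it. The mean was 25509 ± 3457 CPM in MNP and 63683 ± 7431 CPM in MWK (SD, n = 3), a log2 difference of -1.32. The members made up 2.75% ± 0.432 of all MNP counts and 5.91% ± 0.400 of all MWK counts.

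Other cell type miRNAs were followed by lists, with no set test, because the isolate may hold or lack such cells. Over all 525 miRNAs, 102 were higher and 90 lower in nephron progenitors, with a median log2 fold change of -0.011 (the edgeR quasi-likelihood test, Benjamini-Hochberg adjusted). The stromal list, the strands of miR-199a, miR-199b and miR-214, had 6 strands, of which 1 rose and 0 fell, with a median of 0.25. The strand that rose, miR-199b-5p, was named after its value was seen, and it went from 1901 ± 146 CPM in whole kidney to 3285 ± 333 CPM in nephron progenitors. The summed level of the list was 22215, 29566 and 33434 CPM in MNP1, MNP2 and MNP6, against 21892, 23607 and 22318 CPM in MWK1, MWK2 and MWK6. miR-199a-3p and miR-199b-3p held identical counts in every library, so these sums hold the same reads under both names. With those reads taken once, the sums were 15523, 20902 and 24242 CPM in MNP1, MNP2 and MNP6, against 15117, 16141 and 15584 CPM in MWK1, MWK2 and MWK6. On either sum MNP2 and MNP6 lay above every whole kidney library, and MNP1 lay within their range. These strands are made by several mesenchymal cells and do not measure how much stroma the isolate held. Relative to that list, the summed members stood at 0.981, 0.969 and 0.780 in MNP1, MNP2 and MNP6, against 2.80, 3.05 and 2.59 in MWK1, MWK2 and MWK6, a log2 difference of -1.63 with no overlap of the groups. With the shared reads taken once these ratios were 1.40, 1.37 and 1.08, against 4.05, 4.46 and 3.71, a log2 difference of -1.67. The summed members, nearly all miR-143-3p, were thus lower against stromal miRNAs in every nephron progenitor library. What part the makeup of the remaining stroma had in this was not tested.

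Endothelial miR-126a, whose cells the CD105 antibody removes, showed a far larger fall than the summed members. miR-126a-3p, the most abundant strand of the list, was at 502 ± 91.1 CPM in MNP and 18825 ± 1589 CPM in MWK (SD, n = 3), a log2 fold change of -5.23, and both strands of the list fell. The list summed to 419, 595 and 578 CPM in MNP1, MNP2 and MNP6, against 20132, 21311 and 18150 CPM in MWK1, MWK2 and MWK6. The summed members stood at 52.1, 48.2 and 45.1 times that sum in MNP1, MNP2 and MNP6. In MWK1, MWK2 and MWK6 they stood at 3.04, 3.38 and 3.18 times, a log2 difference of 3.92. The summed members, nearly all miR-143-3p, and the endothelial miRNA therefore did not fall in proportion.

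The list tied to smooth muscle phenotype (miR-21a, miR-26a, miR-146a, miR-221 and miR-222) had 9 strands, of which 1 rose and 1 fell, with a median of 0.12. Its summed level was 41739, 44432 and 33059 CPM in MNP1, MNP2 and MNP6, against 62337, 66695 and 53854 CPM in MWK1, MWK2 and MWK6. The sum was thus lower in every nephron progenitor library, as the summed members were. It was carried by miR-21a-5p. Without that strand the sums were 19916, 18787 and 16929, against 16933, 17778 and 16320 CPM, and the groups overlapped. miR-21a-5p, its most abundant strand, fell from 43952 ± 5828 CPM to 21200 ± 4788 CPM (log2 fold change -1.05), while miR-26a-5p (0.12) and miR-222-3p (0.32) did not pass. The strand that rose, miR-26a-2-3p at 1.01, was named after its value was seen. These miRNAs are made by many cell types, so the list does not mark smooth muscle.

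Striated muscle miRNAs had 1 of 4 strands higher and 0 lower, with a median of 0.94. The strand was miR-206-3p, at 178 ± 108 CPM in MNP and 6.22 ± 8.38 CPM in MWK, a mean under the floor in the latter. The whole list summed to 327, 460 and 142 CPM in MNP1, MNP2 and MNP6, against 75.2, 139 and 61.3 CPM in MWK1, MWK2 and MWK6, with no overlap of the groups. Without miR-206-3p the sums were 140, 179 and 76.2, against 75.2, 123 and 58.4 CPM, and the groups overlapped, so the higher sum rested on that strand.

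For the lists of depleted or other cells, epithelium (the miR-200 family, miR-141, miR-429, miR-203 and miR-205) had 9 of 9 strands lower, with a median of -6.46, or -5.50 with the 2 strands at 0 in every nephron progenitor library set at the floor. Erythroid miRNAs had 5 of 7 lower and 0 higher, with a median of -1.31, but the strands of miR-486a and miR-486b held identical counts, and with these taken once 4 of 5 were lower, with a median of -2.10. Of the tubule miRNAs 2 of 4 were lower and 0 higher, with a median of -0.89. Leukocyte miRNAs had 1 of 6 higher and 0 lower, with a median of 0.30, and the strand that rose, miR-223-5p, was at 0 in every whole kidney library and was named after its value was seen. What part the depletion of other cells had in the fall of miR-143-3p and miR-145a-5p was not tested.

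**Figure D3:**
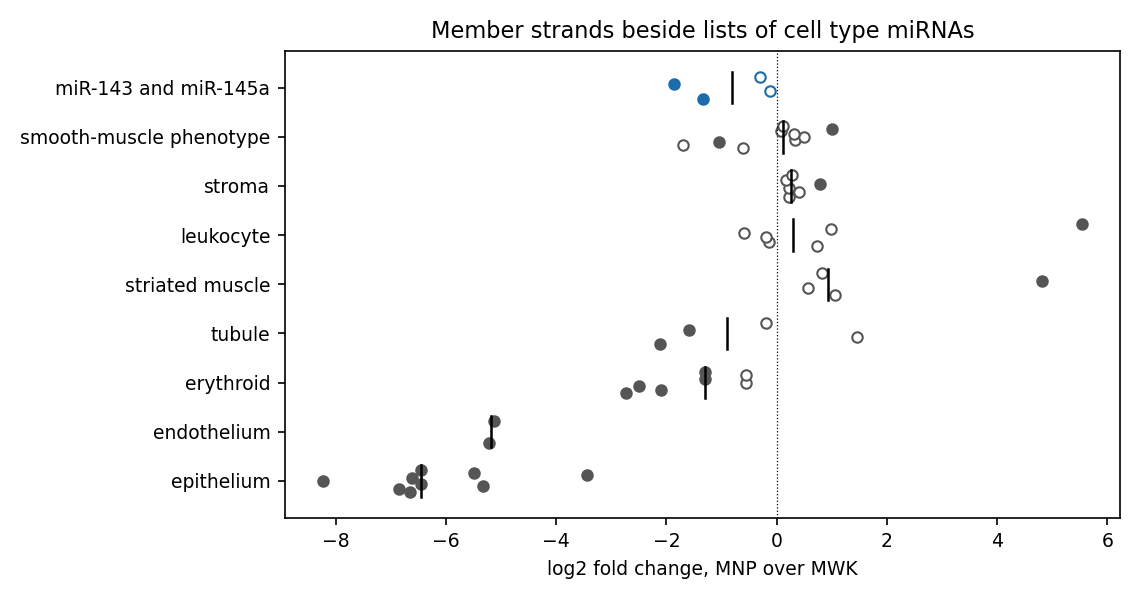
Log2 fold change of MNP over MWK (x axis) for the member strands and for 8 lists of cell type miRNAs, with a point for each strand (filled where adjusted p was at most 0.05 by edgeR's quasi-likelihood test) and a bar for the median of each row. The member strands that fell lie between the epithelial and endothelial strands and the stromal strands, and fitted values of the 3 list strands at 0 throughout a group depend on the prior count.

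The miRNAs whose profile over the 6 libraries was nearest to miR-143-3p and to miR-145a-5p were taken from 224 candidates with a mean of at least 100 CPM, by the root mean square difference of log2 CPM centred on each miRNA's own mean. For miR-143-3p these were miR-34c-5p (0.163), miR-30c-2-3p (0.173), miR-30a-3p (0.187), miR-503-5p (0.203) and miR-6240 (0.212). For miR-145a-5p they were miR-30a-3p (0.188), miR-322-5p (0.260), miR-192-5p (0.271), miR-143-3p itself (0.288) and miR-30a-5p (0.305). miR-30a-3p was thus near both. Between miR-143-3p and miR-145a-5p themselves the likeness was uneven, since miR-143-3p was at place 4 for miR-145a-5p while miR-145a-5p was only at place 10 for miR-143-3p. With 2 groups of libraries the difference between groups sets most of such a likeness, and by Pearson r in place of the difference 0 of 5 and 3 of 5 of these names stayed. Their levels fell in the same direction, which follows from how they were chosen. Examples are miR-34c-5p, from 845 ± 36.8 to 344 ± 60.1 CPM, and miR-30a-3p, from 962 ± 130 to 320 ± 27.7 CPM.

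The mature sequences of those neighbours are shown to identify them and to group them by seed, the part that pairs with targets. RefSeq entries (GRCm38.p6) were matched for 7 of 8 and are written 5′ to 3′ with the seed, bases 2 to 8, in capitals, and no 2 of the 7 had the same seed, which bears on these neighbours and not on their likeness to miR-143-3p or miR-145a-5p. miR-30a-5p (23272274 to 23272295), miR-30a-3p (23272315 to 23272336) and miR-30c-2-3p (23291754 to 23291775) lie on the plus strand of chromosome 1. miR-503-5p (53054027 to 53054049) and miR-322-5p (53054306 to 53054327) are both minus-strand sequences of chromosome X. The seeds of miR-503-5p and miR-322-5p differ only at base 8, and their precursors start 271 bases apart. miR-192-5p is on the plus strand of chromosome 19 (6264857 to 6264877) and miR-6240 on the plus strand of chromosome 5 (114851973 to 114851998).
miR-30c-2-3p: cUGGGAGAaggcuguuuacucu
miR-30a-3p: cUUUCAGUcggauguuugcagc
miR-503-5p: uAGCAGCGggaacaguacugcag
miR-6240: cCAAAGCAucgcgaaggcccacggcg
miR-322-5p: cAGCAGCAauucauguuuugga
miR-192-5p: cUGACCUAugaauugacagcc
miR-30a-5p: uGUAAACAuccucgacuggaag

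The stromal strands miR-199a-3p and miR-199b-3p are shown because their counts were identical in every library. Their RefSeq sequences (GRCm38.p6, seed in capitals) are also the same.
miR-199a-3p: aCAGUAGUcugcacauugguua
miR-199b-3p: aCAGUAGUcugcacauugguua

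In the genome build of the table, mm10, mir-145a lies on the minus strand of chromosome 18 at 61647825 to 61647894 and mir-143 at 61649196 to 61649258, with 1301 bases between them. GENCODE vM21 lists no gene over either hairpin other than the miRNA gene itself. The annotated end of Carmn, a long noncoding RNA on the same strand named for cardiac mesoderm, is 366 bases from mir-143. Bvht, a long noncoding RNA on the plus strand, ends 352 bases from mir-145a. The sole other precursor of the table within 1 Mb is mir-378a, 249924 bases from mir-145a in the gene Ppargc1b. Neither miR-378a-3p (log2 fold change -0.35, adjusted p 0.12) nor miR-378a-5p (-0.44, adjusted p 0.23) passed the edgeR quasi-likelihood test, Benjamini-Hochberg adjusted. Both miR-378a strands were nonetheless lower in every nephron progenitor library than in any whole kidney library, as 23.2 percent of all miRNAs were. Whether the change at mir-378a differed from that of the member strands was not tested.

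**Figure D4:**
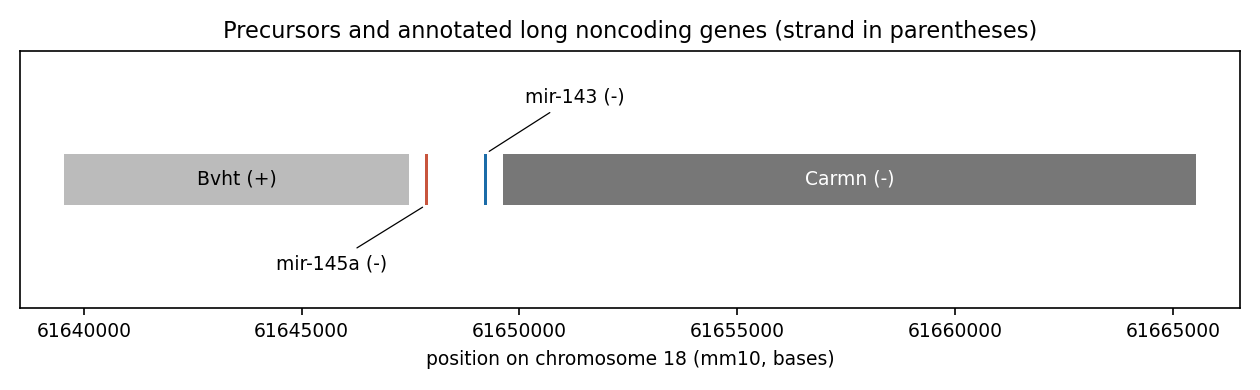
Map of chromosome 18 (x axis, position in mm10, bases) with mir-143, mir-145a and the annotated spans of Carmn and Bvht, drawn to scale with the strand in parentheses. The 2 hairpins lie between the ends of the long noncoding genes and overlap neither.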

How the data were processed

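Small RNA libraries were made from 3 MNP and 3 MWK replicates. After adapter trimming (BBDuk) and alignment to mm10 (Bowtie2), the authors quantified known miRNAs by miRDeep2 and deposited a table of expected counts (792 rows, 535 mature miRNAs). Expected counts were rounded to whole numbers, where plain counts had been planned for, and the highest count over the rows of a mature name was used. The sample titles run from MNP1 to MNP3 and MWK1 to MWK3, so columns MNP6 and MWK6 were placed in their groups by their letters, and their number was not used.

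Each miRNA whose counts summed to more than 10 across libraries was tested with edgeR 4.0.16 (quasi-likelihood, TMM, Benjamini-Hochberg, threshold 0.05) in R 4.3.3. Arm ratios (67 precursors, each arm with a mean of at least 10 counts) and ratios of adjacent precursors (48 pairs, starts within 10 kb on a strand, each averaging at least 20 counts) were log2 values with a pseudocount of 0.5, fitted with limma 3.58.1 (eBayes with trend). Precursor sums for the pairs left out strands listed under more than 1 precursor. DESeq2 1.42.0, limma-voom, other scalings and filters, and leaving out each library were alternatives. Scripts were tested on simulated counts.

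Named were the member strands, the 3 most abundant strands of each list, the 5 nearest profiles of miR-143-3p and miR-145a-5p, neighbours in level, strands within 1 Mb, and the 3 largest ratio changes past the threshold. Members and lists were chosen with earlier results of these data known.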

Additional observations from a re-analysis of the deposited data

How the results depend on the processing

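miR-143-3p and miR-145a-5p were lower in MNP and past the threshold in all 17 alternatives run, with log2 fold changes of -1.45 to -1.12 (adjusted p 2.5e-10 to 0.0066) and -2.04 to -1.65 (adjusted p 1.3e-09 to 0.0095) by edgeR, DESeq2 or limma-voom with Benjamini-Hochberg adjustment. miR-145a-3p stayed short of it at -0.42 to -0.095. miR-143-5p was at 0.078 with library totals, and at -0.29 to 0.073 leaving out a library each time, never past the threshold; the cause was not tested. The arm ratios passed in every alternative run, at 1.01 to 1.41 for mir-143 and -1.72 to -1.44 for mir-145a; the minimum of 50 counts an arm gave no value for mir-143. The ratio of mir-143 to mir-145a was -0.47 and not past the threshold without the trend, and reversed to 0.52 for miR-143-3p over miR-145a-5p, with and without the trend. Without the trend the spread of each pair itself enters the test.

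With library totals the summed members were at -1.12, and calls split into 121 higher and 74 lower, against 102 and 90. The count of calls was 120 in place of 192 with more than 10 counts in every library, where fewer miRNAs are tested. With mir-145a alone, the difference was -1.17 against the stromal list and 4.38 against the endothelial list.

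Replicate numbers 1 and 2 are shared by the groups, which share litters if the replicates of each group came from different ones, but the labels do not tie a number to a litter, so they were not taken as pairs. The difference between libraries 1 and 2 correlated at -0.014 between groups across miRNAs, a single comparison. With a replicate block on those 4 libraries there were 153 calls, against 134 in the same libraries without it; miR-143-3p was at -1.45, miR-145a-5p at -1.88, miR-143-5p at -0.18, miR-145a-3p at -0.41, the hairpin ratio at -0.52, the mir-143 arm ratio at 1.27 and the mir-145a arm ratio at -1.47.

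The low counts of miR-143-5p limit its comparison, and 3 libraries per group cannot reach an exact permutation p under 0.1.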
